A study of Homo sapiens with 120 samples.

Results

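Parental U2OS cells given 100 nM thapsigargin for 8 h (3 wells) were compared with Parental U2OS cells left untreated for 8 h (3 wells). These 6 libraries were chosen by their labels from the 120 of the series, and all genes were considered: of 57665 genes in the table, 26998 had enough counts to be tested. U2OS is a human osteosarcoma line, and the labels give the genotype of the Parental cells as WT. The effect of thapsigargin (100 nM) was also taken at 8 h in a U2OS line with the added construct Dmr-PERK, the kinase domain of mouse PERK joined to a domain that a ligand can pair. It was taken, too, in Parental cells at 4 h and 16 h. Each of these has 3 thapsigargin wells and 3 untreated wells matched in line and time. Parental wells at 2 h and 24 h of thapsigargin and at 0 h and 24 h untreated (3 each) enter the time courses. Parental wells given for 8 h the ligand that pairs Dmr-PERK (0.2 nM in the series description, 3 wells) serve as a check on the untreated wells. Cells were treated in 24-well plates, and total RNA was sequenced. Separate cultures are not named for the wells, and the p-values below thus rest on a well-to-well spread that may be technical.

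Thapsigargin blocks SERCA, the pump that keeps calcium high inside the endoplasmic reticulum (ER). Without that calcium, proteins in the ER fold poorly, and the cell answers with the unfolded protein response. Its sensor PERK (EIF2AK3) phosphorylates eIF2α, which slows protein synthesis and favours translation of the transcription factor ATF4. The sensor IRE1 (ERN1) splices the mRNA of XBP1 and degrades some other ER-bound mRNAs. The sensor ATF6 is cut in the Golgi to release a transcription factor. ATF4 and its target CHOP (DDIT3) are known for genes of amino acid supply and cell death, and XBP1 and ATF6 for chaperones, degradation and transport in the ER.

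The 6 libraries held 18805295 to 39112976 estimated counts, and all 120 held 12868953 to 56504442. The lowest Pearson correlation of each library used with its replicates, over log2 values of genes that are not independent, was 0.9869 to 0.9943. Mitochondrially encoded RNA made up 4.70% to 5.57% of the counts. Of 12 osteoblast and mesenchymal markers 9 were tested. All 12 together summed to 4710 to 4796 CPM (counts per 1e+06 counts) in thapsigargin wells and 8252 to 8410 CPM in untreated wells. The marker sums were not scaled by TMM, while the other CPM values here and below were. Most of that sum was COL1A1, VIM and SPARC, which averaged 2245, 1535 and 812.5 CPM with thapsigargin and 4403, 2304 and 970.9 CPM untreated. The osteoblast markers SP7 and IBSP had counts of 0 or 1 in each of the 6 libraries, as did TWIST1, while BGLAP had 3 to 25. Epithelial markers summed to 846.9 to 861.6 CPM in thapsigargin wells and 728.4 to 752.8 CPM in untreated wells. Most of this was KRT18, which averaged 591.4 CPM with thapsigargin and 374.6 CPM untreated, and KRT8, at 269.9 and 333.8 CPM. The sum thus does not describe the other epithelial markers. Blood markers summed to 0.638 to 1.34 CPM in thapsigargin wells and 1.48 to 1.71 CPM in untreated wells, and 5 of 8 had a count of 0 in all thapsigargin wells. In RNA from whole wells, fewer cells of a type and less RNA per cell cannot be told apart, and each level is a share of its library.

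The promoters of genes of this response carry short stretches that its factors are known to bind. The ER stress response element (ERSE, CCAAT, 9 bases, CCACG) is known for ATF6 with NF-Y, ERSE-II (ATTGG, 1 base, CCACG) for ATF6 and XBP1, and the C/EBP-ATF response element (CARE, TGATG, 1 base, AA) for ATF4. The windows below run from 250 bases before to 50 bases after the RefSeq start of the gene on GRCh38.p14, 5′ to 3′ on the strand of the gene, with the stretch that was found in capitals. They are shown because they belong to 6 of the 12 genes of the response followed through the results, in which at least 1 of these stretches was found. HSPA5 (chr9:125241294-125241593, minus strand) and XBP1 (chr22:28800520-28800819, minus strand) hold an ERSE, 66 and 52 bases before the start:
HSPA5: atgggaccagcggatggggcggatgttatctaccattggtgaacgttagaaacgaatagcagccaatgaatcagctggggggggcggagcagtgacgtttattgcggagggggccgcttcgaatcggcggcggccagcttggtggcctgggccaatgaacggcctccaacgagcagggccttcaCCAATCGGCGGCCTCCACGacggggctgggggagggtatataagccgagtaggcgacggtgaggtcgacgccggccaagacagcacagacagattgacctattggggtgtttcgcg
XBP1: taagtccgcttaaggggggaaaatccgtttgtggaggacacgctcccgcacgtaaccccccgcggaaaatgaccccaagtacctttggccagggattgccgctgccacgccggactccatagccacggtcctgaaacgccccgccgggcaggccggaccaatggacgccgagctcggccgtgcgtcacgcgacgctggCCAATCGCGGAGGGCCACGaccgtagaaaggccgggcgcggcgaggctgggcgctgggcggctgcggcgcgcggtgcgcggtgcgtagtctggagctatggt
HERPUD1 (chr16:56931892-56932191, plus strand) and SDF2L1 (chr22:21642052-21642351, plus strand) hold an ERSE-II, 117 and 188 bases before the start, that of SDF2L1 on the opposite strand. HERPUD1 also holds a CARE on the opposite strand, 176 bases before the start:
HERPUD1: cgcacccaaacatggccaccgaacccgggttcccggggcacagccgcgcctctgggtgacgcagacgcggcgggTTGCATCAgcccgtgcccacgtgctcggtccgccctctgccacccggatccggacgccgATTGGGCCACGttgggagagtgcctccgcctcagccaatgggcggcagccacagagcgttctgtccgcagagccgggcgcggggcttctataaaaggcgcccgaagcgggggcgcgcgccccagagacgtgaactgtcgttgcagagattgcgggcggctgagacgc
SDF2L1: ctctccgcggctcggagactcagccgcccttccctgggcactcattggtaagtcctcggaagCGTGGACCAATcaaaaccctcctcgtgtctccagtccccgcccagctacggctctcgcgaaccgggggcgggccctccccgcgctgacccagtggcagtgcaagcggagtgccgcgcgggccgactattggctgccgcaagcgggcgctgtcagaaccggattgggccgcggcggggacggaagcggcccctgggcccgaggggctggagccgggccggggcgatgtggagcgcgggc
ASNS (chr7:97872359-97872658, minus strand) and CHAC1 (chr15:40953221-40953520, plus strand) hold a CARE, 68 and 209 bases before the start, that of CHAC1 on the opposite strand:
ASNS: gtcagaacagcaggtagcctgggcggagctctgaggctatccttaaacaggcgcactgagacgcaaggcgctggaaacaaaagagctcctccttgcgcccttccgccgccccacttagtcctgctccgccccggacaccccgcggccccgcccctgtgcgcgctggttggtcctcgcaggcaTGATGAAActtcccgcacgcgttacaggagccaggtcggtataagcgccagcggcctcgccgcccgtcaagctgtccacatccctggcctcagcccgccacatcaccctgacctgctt
CHAC1: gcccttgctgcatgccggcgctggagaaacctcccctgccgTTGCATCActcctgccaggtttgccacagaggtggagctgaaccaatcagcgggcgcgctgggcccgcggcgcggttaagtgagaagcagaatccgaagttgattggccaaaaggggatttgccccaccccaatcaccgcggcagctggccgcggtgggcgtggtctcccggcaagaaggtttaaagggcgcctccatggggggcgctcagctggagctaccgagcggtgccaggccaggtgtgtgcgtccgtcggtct

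Thapsigargin changed about as many genes upward as downward by 8 h, and the upward changes held the genes of the unfolded protein response while heat shock, mitosis and matrix genes were lower. edgeR's quasi-likelihood test called 13410 of 26998 genes (49.7%) at a Benjamini-Hochberg adjusted p under 0.05, 6583 higher (24.4%) and 6827 lower (25.3%). The change was at least 2-fold for 1787 higher genes (6.62% of those tested) and 2408 lower genes (8.92%), and the median log2 fold change over all genes tested was -0.038. The values of the 3 thapsigargin wells lay wholly above or below those of the 3 untreated wells for 15103 genes (55.9%), and 582 called genes had overlapping values. The first principal component of the 6 libraries, with 64.7% of the variance, separated the thapsigargin wells from the untreated wells. With so many genes called, the counts of gene groups below are to be read against 24.4% higher and 25.3% lower. Among protein-coding genes alone, 32.1% were higher and 31.4% lower, which is the nearer share for groups of such genes. In what follows, a value with ± in brackets after a gene is its log2 fold change with an approximate standard error. A gene rose or fell where it was called against the untreated wells at 8 h, whatever its level at 0 h.

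All 12 genes of the panel rose, by log2 0.93 (ATF4) to 5.18 (DDIT3). ATF4, the transcription factor whose translation rises when eIF2α is phosphorylated, was at 671, 661 and 649.5 CPM in thapsigargin wells and 350.1, 344 and 343 CPM in untreated wells, a log2 fold change of 0.93 ± 0.034 (edgeR adjusted p = 4.30e-44). DDIT3, which encodes CHOP, was at 244, 259 and 248.6 CPM in thapsigargin wells and 6.401, 7.29 and 6.96 CPM in untreated wells, 36.3-fold higher (log2 5.18 ± 0.082, adjusted p = 1.21e-74). Among the panel, the fold change was largest for DDIT3 and smallest for ATF4, a factor known to be controlled by translation. TRIB3, a pseudokinase and CHOP target, had 560.4, 577 and 561 CPM with thapsigargin, against 20.1, 17.4 and 18.5 CPM untreated (log2 4.92 ± 0.073). PPP1R15A, the stress-induced subunit that directs a phosphatase to eIF2α, had 333, 324 and 309 CPM with thapsigargin, against 24.3, 25.5 and 23.5 CPM untreated (log2 3.73 ± 0.064). The 2 groups did not overlap for these genes, and each well of a group lay close to its mean.

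Asparagine synthetase (ASNS), whose window with a CARE is printed above, was at 272, 283 and 284 CPM in thapsigargin wells and 61.8, 61.7 and 61.8 CPM in untreated wells (log2 2.18 ± 0.041). CHAC1, a glutathione-degrading enzyme, was at 43.05, 44.5 and 45.5 CPM in thapsigargin wells and 7.94, 7.89 and 8.13 CPM in untreated wells (log2 2.47 ± 0.096). SESN2, a stress protein that restrains mTORC1, was at 229, 226 and 229 CPM in thapsigargin wells and 35.5, 33.9 and 34.7 CPM in untreated wells (log2 2.715 ± 0.075). In all of them the lowest thapsigargin well was several times the highest untreated well.

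Genes of the ER itself rose as far. HSPA5 (ENSG00000044574.7, chromosome 9, 125234853 to 125241330 on GRCh38), which encodes BiP, the main ER chaperone of the HSP70 family, had 9477, 9370 and 9224 CPM with thapsigargin, against 937, 937 and 919 CPM untreated, 10.1-fold higher (log2 3.33 ± 0.043, adjusted p = 2.32e-82). Per length, HSPA5 averaged 3603 TPM (transcripts per 1e+06) in thapsigargin wells and 365 TPM in untreated wells. DDIT3 averaged 493 TPM in thapsigargin wells and 13.1 TPM in untreated wells, so HSPA5 was the more abundant mRNA in both. HERPUD1, a membrane protein of ER-associated degradation, had 771, 793 and 775 CPM with thapsigargin and 42.4, 42.99 and 43.5 CPM untreated (log2 4.18 ± 0.057). DNAJB9, a BiP co-chaperone that acts on IRE1, had 174, 180.4 and 178 CPM with thapsigargin and 9.0, 8.196 and 10.7 CPM untreated (log2 4.22 ± 0.058). SDF2L1, another partner of BiP, had 376, 399 and 377 CPM with thapsigargin and 39.4, 37.3 and 38.6 CPM untreated (log2 3.32 ± 0.079). XBP1 had 328, 336 and 336 CPM with thapsigargin and 69.98, 78.5 and 74.98 CPM untreated (log2 2.16 ± 0.047). No untreated well reached the level of a thapsigargin well in any of these genes. Splicing of XBP1 was not measured, since the values are per gene.

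**Figure D1:**
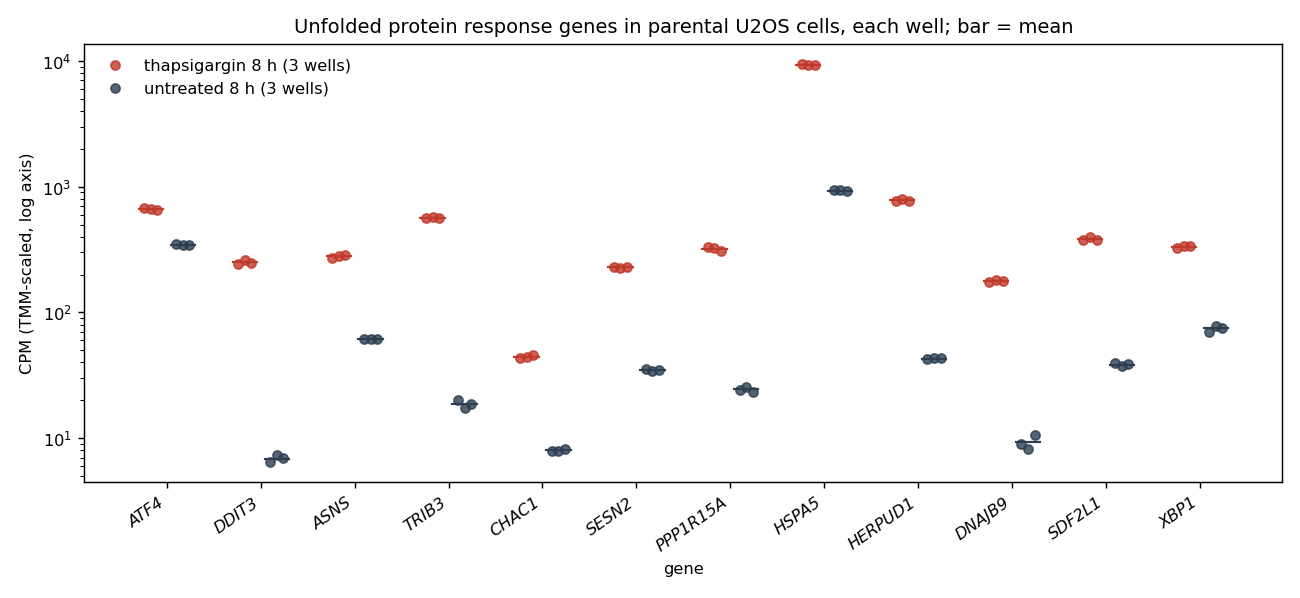
CPM (log axis) of the 12 panel genes in each of the 3 thapsigargin wells (red) and 3 untreated wells (dark) of Parental cells at 8 h, with group means as bars. The groups are apart for all 12 genes, least for ATF4 and most for DDIT3 and TRIB3.

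Of 18 sensors and transcription factors of the unfolded protein response, 14 rose, 1 fell and 3 did not pass (median log2 fold change 1.30). The mRNA of all 3 sensors rose. EIF2AK3 (PERK) averaged 139 ± 6.08 CPM with thapsigargin and 26.1 ± 1.33 CPM untreated (SD, n = 3 each; log2 2.41 ± 0.055). ERN1 (IRE1) averaged 50.1 ± 0.466 CPM with thapsigargin and 19.7 ± 1.61 CPM untreated (log2 1.34 ± 0.072). ATF6 averaged 177 ± 1.24 CPM with thapsigargin and 73.7 ± 1.19 CPM untreated (log2 1.27 ± 0.043). CEBPG, a partner of ATF4 on its target sites, averaged 264 ± 8.44 CPM with thapsigargin and 57.7 ± 1.46 CPM untreated (log2 2.200 ± 0.047). CREB3L1, an ER-anchored factor known for collagen genes, fell (-1.38 ± 0.081), and ATF5 (0.039 ± 0.060), MBTPS1 (0.001 ± 0.051) and ATF6B (-0.007 ± 0.039) did not pass. Among 15 genes of the eIF2 pathway 10 rose, 1 fell and 4 did not pass (median 0.25). PPP1R15A, EIF2AK3 and DNAJC3 had the smallest adjusted p. DNAJC3 (p58IPK), an ER co-chaperone, averaged 300.1 ± 3.93 CPM with thapsigargin and 39.5 ± 2.23 CPM untreated (log2 2.92 ± 0.047). Of the other eIF2α kinases, EIF2AK4 (GCN2) was the member that fell (-0.62 ± 0.041), while EIF2AK1 (0.060 ± 0.030) and EIF2AK2 (0.052 ± 0.050) did not pass.

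Most genes in each of the lists for amino acid supply rose. Of 31 targets of ATF4 and CHOP 29 rose, 26 of them at least 2-fold (median 2.20). KLHL24 fell and ATF5 did not pass. Cytosolic tRNA synthetases, which charge tRNAs with amino acids, rose in 19 of 20 (median 0.93). WARS, the tryptophan enzyme, had the smallest adjusted p, with 642, 652 and 648 CPM in thapsigargin wells and 106, 99.9 and 98.3 CPM in untreated wells (log2 2.68 ± 0.049). SARS (1.77 ± 0.036) and CARS (1.69 ± 0.036) rose too, and QARS alone of the 20 fell (-0.40 ± 0.041). In serine and one-carbon metabolism 7 of 12 rose and 4 fell (median 0.81). The 3 with the smallest adjusted p, all mitochondrial enzymes, rose. ALDH1L2 averaged 171 ± 4.33 CPM with thapsigargin and 16.8 ± 0.173 CPM untreated (log2 3.34 ± 0.072). MTHFD2 averaged 889.9 ± 14.9 CPM with thapsigargin and 238 ± 3.27 CPM untreated (log2 1.91 ± 0.039), and SHMT2 averaged 478 ± 5.79 CPM with thapsigargin and 139.8 ± 5.43 CPM untreated (log2 1.77 ± 0.035). Those that fell included SHMT1, the cytosolic counterpart of SHMT2 (-0.72 ± 0.061), and TYMS, which makes thymidylate (-0.47 ± 0.044). Amino acid carriers rose in 9 of 15 and fell in 4 (median 1.05). Those higher included SLC6A9, a glycine carrier (2.01 ± 0.052), SLC1A4, a carrier of small neutral amino acids (2.01 ± 0.055), and SLC7A11, which exchanges cystine for glutamate (1.903 ± 0.055).

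The machinery that folds and moves ER proteins rose as broadly. Among ER chaperones and their helpers 21 of 23 rose (median 1.34), SDF2 fell (-0.59 ± 0.059) and CDNF did not pass. HYOU1, an ER chaperone that exchanges nucleotide on BiP, had 1936, 1955 and 1972 CPM in thapsigargin wells and 266, 266 and 258 CPM in untreated wells (log2 2.89 ± 0.036, adjusted p = 2.81e-83). Of 18 disulfide isomerases and oxidases tested, 15 rose and 3 did not pass (median log2 fold change 1.000). ERO1B, an oxidase that recharges the isomerases, averaged 82.9 ± 3.05 CPM with thapsigargin and 5.43 ± 0.189 CPM untreated (log2 3.94 ± 0.068). P4HB (PDI itself) averaged 1835 ± 16.9 CPM with thapsigargin and 799.9 ± 7.67 CPM untreated (log2 1.198 ± 0.033). ERP44, which retains proteins through disulfides, averaged 166 ± 4.48 CPM with thapsigargin and 63.02 ± 1.08 CPM untreated (log2 1.399 ± 0.037). ER-associated degradation, which sends misfolded proteins to the proteasome, rose in 20 of 26 and fell in 1, FBXO6 (median 0.90). SEL1L and SYVN1 form the core of one of its ubiquitin ligases. SEL1L averaged 844 ± 11.8 CPM with thapsigargin and 144 ± 0.246 CPM untreated (log2 2.55 ± 0.034), and SYVN1 averaged 358 ± 6.49 CPM with thapsigargin and 46.5 ± 0.378 CPM untreated (log2 2.945 ± 0.042).

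Protein entry, sugar attachment and exit rose with them. The translocon and signal peptidase rose in 18 of 19 (median 0.96), with SEC61A1 at 994 ± 17.2 CPM with thapsigargin and 388 ± 5.82 CPM untreated (log2 1.36 ± 0.032), and SEC63 (1.34 ± 0.035) and SEC11C (2.295 ± 0.070) rose too. Hexosamine synthesis and N-glycosylation rose in 16 of 19 and fell in 2, GFPT2 (-0.85 ± 0.14) and TUSC3 (-0.26 ± 0.039) (median 0.98). GFPT1, the first enzyme of the hexosamine route and the paralog of GFPT2, had 875, 859.5 and 868 CPM in thapsigargin wells and 142, 144 and 141 CPM in untreated wells (log2 2.61 ± 0.040). PGM3 of the same route (1.86 ± 0.044) and the oligosaccharyltransferase subunit MAGT1 (1.47 ± 0.045) rose too; MAGT1 and TUSC3 are paralogs. Of 28 genes of ER-Golgi transport 24 rose and 4 did not pass (median 0.91). SEC24D and SEC23B encode coat subunits of vesicles that leave the ER. SEC24D averaged 274 ± 8.22 CPM with thapsigargin and 38.2 ± 0.673 CPM untreated (log2 2.84 ± 0.039). SEC23B averaged 239 ± 2.85 CPM with thapsigargin and 42.2 ± 1.01 CPM untreated (log2 2.498 ± 0.044), and the cargo receptor subunit MCFD2 rose by 1.34 ± 0.031.

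**Figure D2:**
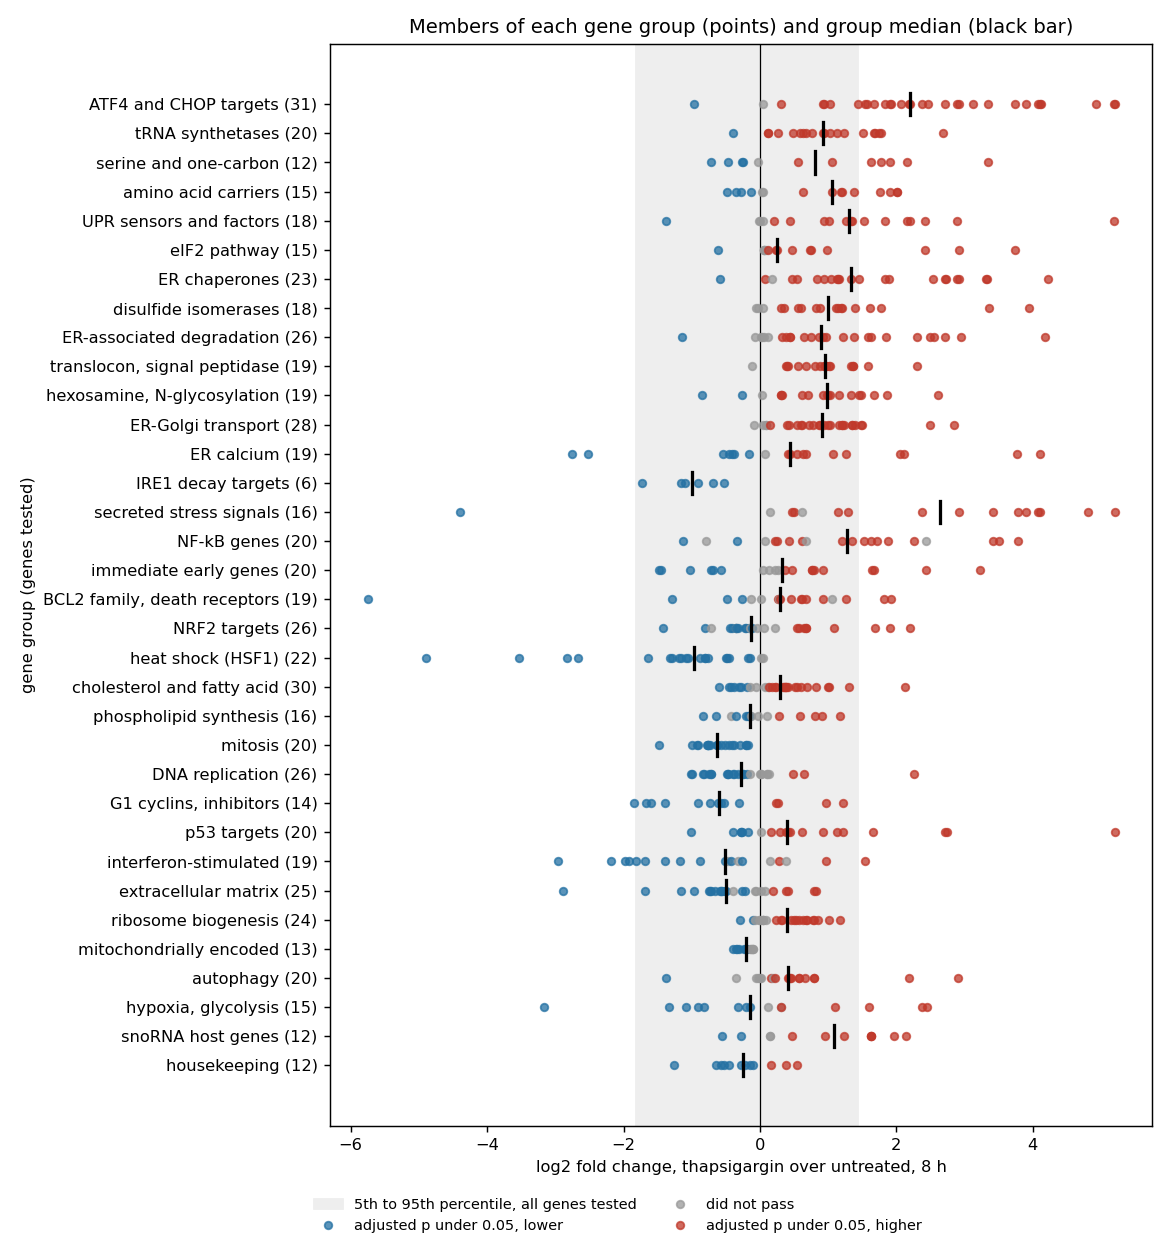
Log2 fold change (thapsigargin over untreated, 8 h) of each tested member of the gene groups, with group medians as black bars and the middle 90% of all genes tested in grey. ER and ATF4 groups lie to the right of zero, and heat shock, mitosis and IRE1 decay groups to the left.

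Calcium handling changed in both directions. Of 19 genes of ER calcium 11 rose, 7 fell and 1 did not pass (median 0.44). RCAN1, a calcineurin inhibitor that calcium signals are known to induce, had 476, 501 and 487 CPM in thapsigargin wells and 39.1, 36 and 33.5 CPM in untreated wells (log2 3.765 ± 0.053, adjusted p = 3.42e-79). Untreated wells averaged 233 CPM of RCAN1 at 0 h, so the untreated level fell by 8 h. ATP2A2, which encodes SERCA2, the target of the drug, averaged 550.2 ± 8.59 CPM with thapsigargin and 230.4 ± 6.83 CPM untreated (log2 1.255 ± 0.043). The plasma membrane calcium pumps moved in opposite directions. ATP2B1 averaged 382 ± 9.47 CPM with thapsigargin and 88.7 ± 1.23 CPM untreated (log2 2.11 ± 0.046), and ATP2B4, named after its values were seen, averaged 8.697 ± 0.549 CPM with thapsigargin and 49.4 ± 3.29 CPM untreated (log2 -2.52 ± 0.078). NUCB2, a calcium-binding protein, rose by 2.06 ± 0.040. All 6 mRNAs listed as targets of IRE1-dependent decay fell (median log2 fold change -0.999). SCARA3, a scavenger receptor, averaged 56.2 ± 1.08 CPM with thapsigargin and 186 ± 1.25 CPM untreated (log2 -1.73 ± 0.047). TGOLN2, a protein of the trans-Golgi, averaged 117 ± 1.22 CPM with thapsigargin and 219 ± 5.32 CPM untreated (log2 -0.90 ± 0.031). PDGFRB, a growth factor receptor, averaged 34.7 ± 0.354 CPM with thapsigargin and 74.05 ± 1.14 CPM untreated (log2 -1.095 ± 0.050). COL6A1, BLOC1S1 and HGSNAT changed by -1.16 ± 0.057, -0.69 ± 0.072 and -0.53 ± 0.095 on the log2 scale. The values per gene do not tell decay from lower synthesis.

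Secreted signals of stressed cells rose in 13 of 16, BMP4 fell and 2 did not pass (median 2.64). GDF15, a hormone of the TGF-beta family that stressed tissues release, was at 28.4, 28.01 and 29.02 CPM in thapsigargin wells and 0.77, 0.453 and 0.922 CPM in untreated wells (log2 5.205 ± 0.17). VEGFA, which drives vessel growth, averaged 381 ± 3.65 CPM with thapsigargin and 73.8 ± 4.49 CPM untreated (log2 2.37 ± 0.046). The peptide hormone gene ADM2 averaged 105 ± 3.71 CPM with thapsigargin and 14.02 ± 0.746 CPM untreated (log2 2.92 ± 0.079). BMP4, a bone morphogenetic protein, was at 6.93, 7.88 and 6.17 CPM in thapsigargin wells and 152, 143 and 151 CPM in untreated wells (log2 -4.39 ± 0.095). Of 20 NF-kB and inflammatory genes tested 14 rose, NFKBIA and CCL2 fell and 4 did not pass (median 1.27). The subunits RELB (2.26 ± 0.070), NFKB2 (1.63 ± 0.057) and NFKB1 (1.53 ± 0.072) rose. Immediate early genes, which respond within an hour to growth factors and stress, were split, with 10 of 20 higher and 6 lower (median 0.32). MYC averaged 261 ± 9.43 CPM with thapsigargin and 81.9 ± 0.713 CPM untreated (log2 1.67 ± 0.070). NR4A2 rose by 3.23 ± 0.22 and FOSL1 by 0.93 ± 0.089, and JUN, JUNB, FOS, EGR2, EGR3 and ZFP36 fell. In untreated wells at 0 h, NR4A2 and FOSL1 averaged 77.9 and 182 CPM. At 8 h they averaged 9.21 and 71.5 CPM with thapsigargin and 0.962 and 37.7 CPM untreated, so both groups stood below the 0 h level.

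Genes of the BCL2 family and of death receptors rose in 11 of 19 and fell in 4 (median 0.29). TNFRSF10B, the death receptor DR5 and a known CHOP target, had 290.5, 291 and 288 CPM in thapsigargin wells and 77.9, 76.2 and 76.6 CPM in untreated wells (log2 1.915 ± 0.047). PMAIP1 (NOXA), a BH3-only protein, averaged 111 ± 1.81 CPM with thapsigargin and 46.3 ± 2.27 CPM untreated (log2 1.26 ± 0.055). BMF, another BH3-only protein, was at 0.267, 0.255 and 0.164 CPM in thapsigargin wells and 11.02, 13.98 and 13.2 CPM in untreated wells, 53.8-fold lower (log2 -5.75 ± 0.25). BCL2L11 (BIM), named here after its values were seen, fell by 1.29 on the log2 scale, and BID and BOK were the other 2 that fell.

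Cytosolic heat shock genes fell. Of 22 genes known as targets of HSF1, 20 fell, 11 of them at least 2-fold, and HSPB8 (0.049 ± 0.070) and HSPD1 (0.017 ± 0.045) did not pass (median -0.97). HSPA1A (ENSG00000204389.9, chromosome 6, 31815464 to 31817946 on GRCh38), the inducible HSP70, was at 13.1, 11.2 and 13.04 CPM in thapsigargin wells and 369, 356 and 370.5 CPM in untreated wells, 29.7-fold lower (log2 -4.89 ± 0.12). Its near-identical neighbour HSPA1B had 20.8, 24.2 and 20.9 CPM with thapsigargin, against 259, 257 and 257 CPM untreated (log2 -3.54 ± 0.11), and how reads were divided between the 2 is uncertain. HSPA8, the constitutive HSC70, had 307, 304 and 289 CPM with thapsigargin, against 2158, 2100 and 2114 CPM untreated (log2 -2.82 ± 0.051). Within the HSP70 family, the ER member HSPA5 rose while these cytosolic members fell. The level of HSPA1A in untreated wells itself varied with time. It averaged 98.4 ± 9.42 CPM at 0 h, 90.7 ± 4.93 CPM at 4 h, 365 ± 8.36 CPM at 8 h, 213 ± 9.41 CPM at 16 h and 314 ± 22.6 CPM at 24 h. Thapsigargin wells averaged 63.4 ± 7.57, 9.39 ± 0.844, 12.4 ± 1.11, 35.05 ± 0.717 and 31.3 ± 1.84 CPM at 2, 4, 8, 16 and 24 h (SD, n = 3 each).

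Genes of cell division were lower. All 20 genes of mitosis fell (median -0.63), by log2 -0.18 (UBE2C) to -1.48 (KIF20A, a kinesin of cytokinesis). KIF20A averaged 47.6 ± 1.42 CPM with thapsigargin and 133 ± 2.73 CPM untreated. BUB1B, a checkpoint kinase, averaged 48.02 ± 3.32 CPM with thapsigargin and 95.3 ± 1.302 CPM untreated (log2 -0.99 ± 0.050), and AURKA, a spindle kinase, averaged 116 ± 0.689 CPM with thapsigargin and 198 ± 0.686 CPM untreated (log2 -0.775 ± 0.040). Of 26 genes of DNA replication 16 fell, 3 rose and 7 did not pass (median -0.28). MCM4, a subunit of the replicative helicase, averaged 117 ± 2.15 CPM with thapsigargin and 235 ± 8.69 CPM untreated (log2 -1.01 ± 0.046). PCNA, the sliding clamp, averaged 77.5 ± 1.46 CPM with thapsigargin and 155 ± 2.44 CPM untreated (log2 -1.003 ± 0.058). CDC6, which loads that helicase, went the other way: it was at 531, 525 and 528 CPM in thapsigargin wells and 109.9, 110.2 and 112 CPM in untreated wells (log2 2.255 ± 0.048). Among 14 G1 cyclins, kinases and inhibitors 10 fell and 4 rose (median -0.59). CCND1 (cyclin D1) averaged 121 ± 8.08 CPM with thapsigargin and 318 ± 3.94 CPM untreated (log2 -1.396 ± 0.050). CDKN2C, an inhibitor of CDK4 and CDK6, averaged 17.5 ± 1.27 CPM with thapsigargin and 56.3 ± 2.81 CPM untreated (log2 -1.67 ± 0.061). CDKN1A (p21) averaged 208 ± 6.23 CPM with thapsigargin and 89.1 ± 4.61 CPM untreated (log2 1.22 ± 0.044). Of 20 p53 targets 13 rose and 6 fell (median 0.40). GADD45A (2.74 ± 0.068), SESN2 and PLK3 (1.65 ± 0.052) had the smallest adjusted p, and GDF15, described above, the highest fold change. PLK3 averaged 60.8 CPM untreated at 0 h, against 54.5 CPM with thapsigargin and 17.5 CPM untreated at 8 h.

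Of 25 matrix genes 15 fell and 5 rose (median -0.50). THBS1, a matrix glycoprotein, had 116, 121 and 120.2 CPM in thapsigargin wells and 905, 892 and 851 CPM in untreated wells (log2 -2.89 ± 0.062). COL4A1, of the basement membrane, averaged 225 ± 6.65 CPM with thapsigargin and 724 ± 16.6 CPM untreated (log2 -1.69 ± 0.087). Of the 9 osteoblast and mesenchymal markers tested 6 fell and 2 rose (median -0.59), with COL1A1 (-0.97 ± 0.054), VIM (-0.59 ± 0.030) and THY1 (-1.66 ± 0.050) among those that fell. COL1A1 and SPARC are in both lists. The part of the lower marker sum in the lower matrix genes was not tested. Of 9 epithelial markers tested 3 rose and 4 fell (median -0.086), with ESRP1 highest, KRT18 at 0.66 ± 0.046 and CLDN4 at -2.11 ± 0.18. Of 19 interferon-stimulated genes 12 fell and 3 rose (median -0.51), with IFIT1, OASL and PARP9 at the smallest adjusted p. IFIT1 averaged 1.06 ± 0.282 CPM with thapsigargin and 4.72 ± 0.497 CPM untreated (log2 -2.18 ± 0.20), and OASL averaged 0.451 ± 0.0767 CPM with thapsigargin and 3.505 ± 0.382 CPM untreated (log2 -2.96 ± 0.28). PARP9 averaged 9.72 ± 0.296 CPM with thapsigargin and 17.9 ± 0.881 CPM untreated (log2 -0.87 ± 0.092). None of the 4 blood markers tested was called, and CD68 averaged 0.428 ± 0.155 CPM with thapsigargin and 0.704 ± 0.2699 CPM untreated.

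Other groups moved less or in both directions. NRF2 targets, genes of the antioxidant response, were split, 9 of 26 higher and 11 lower (median -0.13). GCLC, which limits glutathione synthesis, averaged 255 ± 9.98 CPM with thapsigargin and 55.7 ± 0.6504 CPM untreated (log2 2.195 ± 0.037). UGDH rose (1.69 ± 0.041), while PRDX1, a peroxidase named after its values were seen, fell (-1.43 ± 0.043). Of 30 cholesterol and fatty acid genes 19 rose and 7 fell (median 0.29). STARD4, a sterol carrier, had the smallest adjusted p (2.12 ± 0.051), followed by CYP51A1 (1.00 ± 0.034) and SCD (0.82 ± 0.034). Of 16 phospholipid synthesis genes 5 rose and 7 fell (median -0.14), and PCYT1A (1.18 ± 0.033), EPT1 (0.91 ± 0.049) and LPIN1 (0.59 ± 0.036) were among those that rose. Autophagy genes rose in 13 of 20 and ULK1 alone fell (-1.38 ± 0.062; median 0.42). WIPI1 averaged 114 ± 1.73 CPM with thapsigargin and 15.2 ± 0.455 CPM untreated (log2 2.901 ± 0.063). MAP1LC3B, which encodes LC3B, averaged 456 ± 18.5 CPM with thapsigargin and 100.1 ± 1.12 CPM untreated (log2 2.19 ± 0.035). Of 24 ribosome biogenesis genes 15 rose, while RRP1B and POLR1A fell (median 0.39). DDX21 rose by 1.175 ± 0.042, WDR43 by 1.005 ± 0.044 and POLR1B by 0.77 ± 0.043.

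Host genes of snoRNAs, whose spliced transcripts are known to be degraded when they are translated, rose in 8 of 12, while SNHG16 and DANCR fell (median 1.09). ZFAS1 was at 338, 342 and 331 CPM in thapsigargin wells and 77.6, 75.6 and 76.3 CPM in untreated wells (log2 2.14 ± 0.053). GAS5 averaged 350.5 ± 11.5 CPM with thapsigargin and 114 ± 4.903 CPM untreated (log2 1.62 ± 0.049), and SNHG8 rose by 1.97 ± 0.071. Of 15 hypoxia and glycolysis genes 5 rose and 8 fell (median -0.14), with HK2 (2.45 ± 0.084), NDRG1 (1.59 ± 0.052) and VEGFA having the smallest adjusted p. Mitochondrially encoded genes fell in 8 of 13 and 5 did not pass (median -0.20), with MT-ND5 (-0.40 ± 0.080), MT-ND3 (-0.30 ± 0.049) and MT-ND6 (-0.34 ± 0.052) among those that fell. Of 12 genes often used as housekeeping references 9 fell and 3 rose (median -0.25). ACTB averaged 2422 ± 106 CPM with thapsigargin and 5782 ± 106 CPM untreated (log2 -1.26 ± 0.049). TFRC averaged 242 ± 5.73 CPM with thapsigargin and 380.2 ± 2.44 CPM untreated (log2 -0.65 ± 0.047).

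Among the 15 genes with the highest fold changes at 5 CPM or more, GDF15 and DDIT3 belong to the response above, and most of the rest were low without the drug. SPRR2D, a protein of the cornified envelope of skin, had 411 counts over the 3 thapsigargin wells and 2 over the 3 untreated wells, a ratio per library total with a 95% exact interval of 67.0 to 2019, which covers counting error only. ESRP1, a splicing regulator of epithelial cells, had 563 counts over the thapsigargin wells and 3 over the untreated wells, with an interval of 75.8 to 1082. BHLHA15 (MIST1), a transcription factor of secretory cells and a known XBP1 target, was at 11.5, 12.5 and 12.98 CPM in thapsigargin wells and 0.385, 0.503 and 0.274 CPM in untreated wells (log2 5.08 ± 0.19). SPX, which encodes the peptide hormone spexin, was at 52.2, 47.9 and 48.7 CPM in thapsigargin wells and 0.914, 0.955 and 1.17 CPM in untreated wells (log2 5.55 ± 0.11). OSCAR, a collagen receptor of osteoclasts, rose by 5.215 ± 0.20, OLAH, a thioesterase of fatty acid synthesis, by 5.12 ± 0.22, KLHDC7B by 6.14 ± 0.33 and FIBIN by 5.06 ± 0.15. The other 5 were DUX4L25 and DUX4L19, copies of the DUX4 repeat, and the CLUH pseudogenes CLUHP10, CLUHP5 and CLUHP4, with log2 fold changes of 6.01 to 6.73. Near-identical copies share reads, so the level of any one of them is uncertain.

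Among the 15 genes with the lowest fold changes, SLC2A12 (ENSG00000146411.5, chromosome 6, 133988697 to 134052636 on GRCh38), which encodes the glucose transporter GLUT12, came first. It was at 0.427, 0.328 and 0.109 CPM in thapsigargin wells and 26.8, 31.7 and 31.9 CPM in untreated wells, 101-fold lower (log2 -6.66 ± 0.26, adjusted p = 1.35e-41). ACKR3, an atypical chemokine receptor, was at 1.71, 1.57 and 1.53 CPM in thapsigargin wells and 39.9, 39.2 and 39.7 CPM in untreated wells (log2 -4.63 ± 0.13). Among the others, LHX1 (-5.69 ± 0.29), EDN2 (-4.39 ± 0.23), WNT11 (-4.27 ± 0.28), DRD1 (-4.24 ± 0.22), PCDH18 (-4.16 ± 0.21), LRRC32 (-4.09 ± 0.21) and CXXC4 (-3.88 ± 0.24) fell, beside BMP4, BMF and HSPA1A. TET1, which oxidises methylated cytosine, fell (-4.47 ± 0.22), and PMP22, a myelin protein also made in other cells, was at 5.12, 4.56 and 4.64 CPM in thapsigargin wells and 79.9, 87.4 and 83.5 CPM in untreated wells (log2 -4.14 ± 0.10). AC009065.1, an unnamed locus, had 0.107, 0.109 and 0 CPM in thapsigargin wells and 0.866, 12.1 and 6.38 CPM in untreated wells (log2 -6.27 ± 1.27). Its untreated wells lay far apart, and its fold change has the largest error of these 15.

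The letters of the stretches printed above were searched on both strands of 35116 RefSeq promoter windows of 300 bases, which matched 13580 of the 26998 genes tested. Of these genes 32.4% rose, 30.8% fell and 6.98% rose at least 2-fold. An ERSE was found in 27 windows (0.0769%). Of the 20 tested genes with one 17 rose, 14 of them at least 2-fold, SYNPO fell and 2 did not pass (median log2 fold change 1.61). They include HSPA5, XBP1, HSP90B1, CALR, CANX, PDIA6, CRELD2, ALG12 and ERO1B of the groups above, and also FICD, which modifies BiP (3.32 ± 0.083), and SERP1 (2.025 ± 0.039). FRG2B, FRG2C (2.17 ± 0.49) and FRG2 belong to a family of near-identical copies and are uncertain, and FRG2B had a count of 0 in all untreated wells, so that no fold is given for it. An ERSE-II was found in 19 windows (0.0541%). Of its tested genes 10 of 15 rose and 4 fell (median 0.62), with HERPUD1, SDF2L1 and HYOU1 highest. The letters TGACGTGG, the core of the site known for XBP1 and ATF6 (UPRE), were in 256 windows (0.729%), with 71 of 158 tested genes higher and 43 lower (median 0.13). A CARE was in 1270 windows (3.62%), with 148 of 437 tested genes higher, 66 of them at least 2-fold (15.1%), and 111 lower (median 0.006). The heat shock letters GAA, 2 bases, TTC, 2 bases, GAA (HSE) were in 172 windows (0.490%), with 12 of 75 tested genes higher and 27 lower (median -0.17). Among the panel, 6 of 12 genes had none of these letters in their windows, DDIT3, TRIB3 and ATF4 included, and 6 had at least 1. Longer motifs can contain shorter ones, and a match is a description of these letters.

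**Figure D3:**
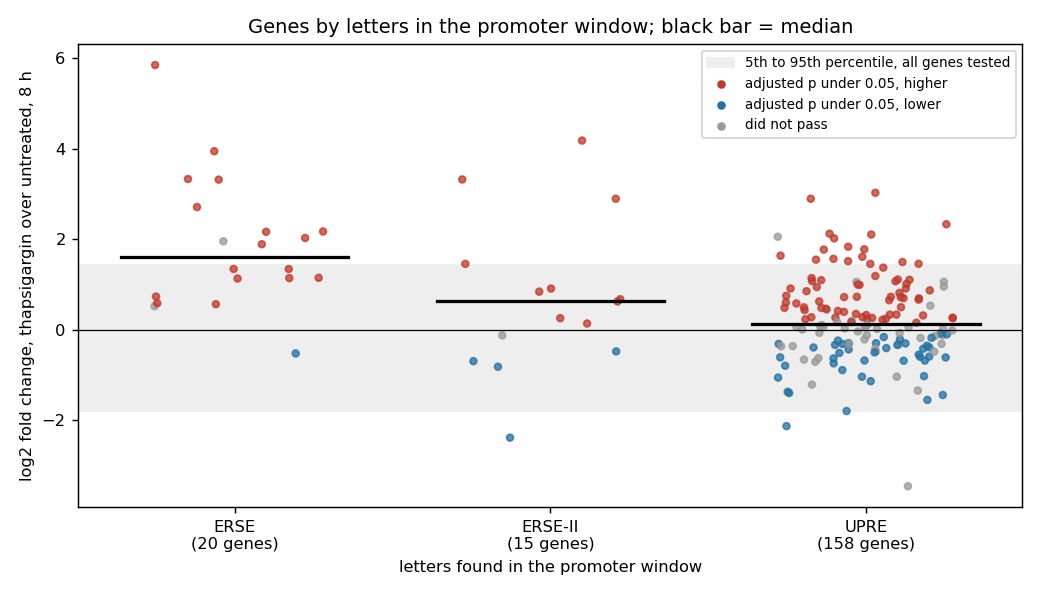
Log2 fold change (thapsigargin over untreated, 8 h) of tested genes whose promoter window holds an ERSE (20), an ERSE-II (15) or a UPRE core (158), each gene a point and the median a bar, with the middle 90% of all genes tested in grey. ERSE genes lie mostly above the grey band or in its upper part, while UPRE genes spread on both sides of zero. The highest ERSE point is FRG2B, whose fitted fold change rests on untreated counts of 0.

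The response at 8 h was set between that at 4 h and 16 h to ask how far it had moved. The effect differed between 8 h and 4 h for 7843 genes (29.1%), 3829 higher at 8 h (14.2%) and 4014 lower (14.9%), and between 16 h and 8 h for 6380 genes (23.6%), 2532 higher at 16 h (9.38%) and 3848 lower (14.3%). Both differences use the wells at 8 h, and a larger effect means a higher log2 fold change. At single times, edgeR called 40.6% of genes at 4 h, 49.7% at 8 h and 56.2% at 16 h. The effect on genes of the ER was still growing. The effect was larger at 8 h than at 4 h for 20 of 23 ER chaperones and smaller for none. It was larger again at 16 h than at 8 h for 16 and smaller for 1, with medians of 0.62, 1.34 and 1.75 at 4, 8 and 16 h. Translocon genes did likewise (17 of 19 and then 14 of 19 larger, medians 0.32, 0.96 and 1.23), as did ER-Golgi transport (22 of 28 and then 17 of 28, medians 0.42, 0.91 and 1.18). For ATF4 and CHOP targets the effect was larger at 8 h than at 4 h for 20 of 31 and smaller for 6. At 16 h it was smaller than at 8 h for 22 and larger for 2 (medians 1.58, 2.20 and 1.73). The tRNA synthetases followed the same order, with 18 of 20 larger at 8 h than at 4 h and 13 smaller at 16 h than at 8 h (medians 0.59, 0.93 and 0.67). Untreated levels moved too. At 8 and 16 h, HYOU1 averaged 1954 and 2131 CPM with thapsigargin and 263 and 177 CPM untreated. SEC24D averaged 274 and 234 CPM with thapsigargin and 38.2 and 28.7 CPM untreated. TRIB3 averaged 566 and 426 CPM with thapsigargin and 18.7 and 24.3 CPM untreated. The share of the untreated wells in these medians was not tested.

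**Figure D4:**
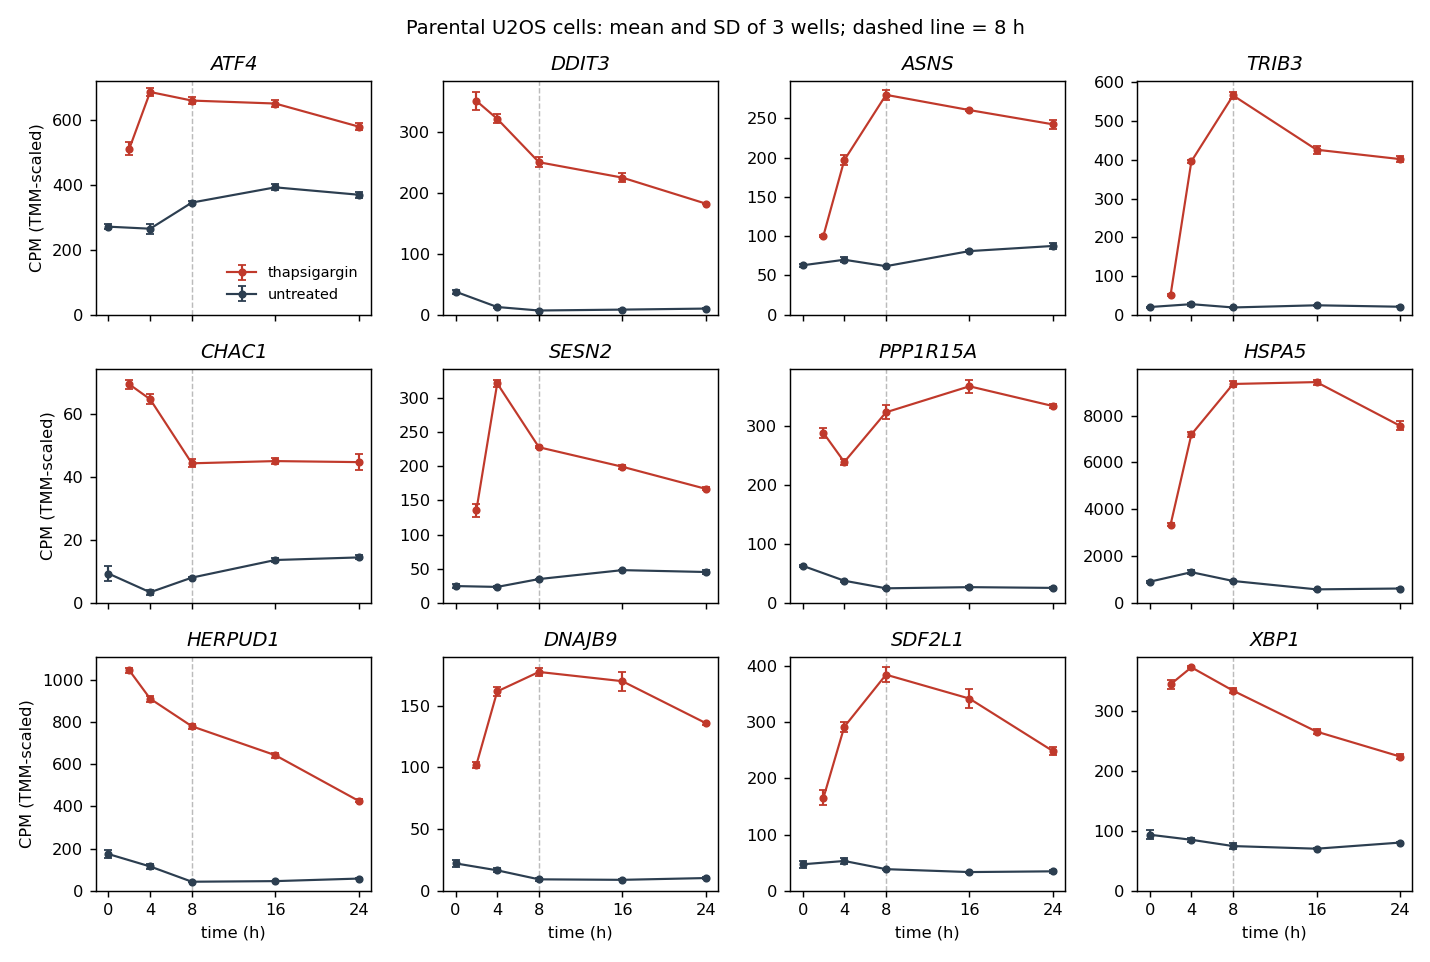
CPM (mean and SD of 3 wells) of the 12 panel genes in Parental cells over 2 to 24 h of thapsigargin (red) and 0 to 24 h untreated (dark), with 8 h dashed. DDIT3, CHAC1 and HERPUD1 stood highest at 2 h, TRIB3, ASNS and SDF2L1 at 8 h, and HSPA5 was near level from 8 to 16 h.

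Within the panel, the level of HSPA5 in thapsigargin wells averaged 3331 ± 59.3, 7197 ± 87.99, 9357 ± 127, 9438 ± 107 and 7570 ± 187 CPM at 2, 4, 8, 16 and 24 h (SD, n = 3 each). Its effect at 8 h was above that at 4 h by 0.87 ± 0.055 (log2), and its effect at 16 h was above that at 8 h by 0.71 ± 0.055. Untreated wells averaged 1307 ± 82.5, 931 ± 10.4 and 572 ± 7.46 CPM at 4, 8 and 16 h, so they too moved between these times. DDIT3 averaged 351 ± 14.6, 322 ± 7.37, 250.5 ± 7.798, 225 ± 7.79 and 182 ± 1.31 CPM at the same times, with its highest level at 2 h. Untreated wells averaged 37.9 ± 3.52 CPM at 0 h, 12.6 ± 1.03 CPM at 4 h and 6.88 ± 0.449 CPM at 8 h, and the effect was larger at 8 h than at 4 h (0.53 ± 0.12). HERPUD1 was likewise lower at 8 h than at 4 h in both groups. It averaged 911 ± 14.2 and 779.8 ± 11.5 CPM at 4 and 8 h of thapsigargin and 115 ± 11.6 and 42.96 ± 0.599 CPM untreated, with a difference in effect of 1.204 ± 0.074. CHAC1 (-1.74 ± 0.16), SESN2 (-1.07 ± 0.11) and ATF4 (-0.44 ± 0.048) had smaller effects at 8 h than at 4 h. Their untreated wells averaged 3.33, 23.2 and 265 CPM at 4 h and 7.99, 34.7 and 346 CPM at 8 h. Their thapsigargin wells averaged 64.7, 322 and 687 CPM at 4 h and 44.3, 228 and 660 CPM at 8 h. The difference for XBP1 did not pass (0.034 ± 0.065, adjusted p = 0.786).

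Other groups had different courses. The effect on all mitosis genes but 1 was lower at 8 h than at 4 h (19 of 20). For 13 it was higher again at 16 h (medians 0.031, -0.63 and -0.30 at 4, 8 and 16 h). Untreated levels of KIF20A, BUB1B and AURKA averaged 68.85, 45.87 and 91.83 CPM at 4 h and 133, 95.3 and 198 CPM at 8 h. With thapsigargin they averaged 59.3, 39.3 and 75.75 CPM at 4 h and 47.6, 48.02 and 116 CPM at 8 h. The effect on genes of DNA replication went on downward (medians -0.066, -0.28 and -1.02). It was lower at 8 h than at 4 h for 15 of 26 and lower at 16 h than at 8 h for 24. The effect on heat shock genes was lowest at 8 h (medians -0.25, -0.97 and -0.71). For 19 of 22 it was lower than at 4 h, and for 12 it was higher at 16 h than at 8 h. HSPA1A averaged 9.39 and 12.4 CPM at 4 and 8 h with thapsigargin and 90.7 and 365 CPM untreated. HSPA8 averaged 321 and 300 CPM with thapsigargin and 1205 and 2124 CPM untreated, so the untreated wells moved between these times. The effect on 21 of 30 cholesterol and fatty acid genes was lower at 8 h than at 4 h (medians 0.81, 0.29 and 0.31). NF-kB genes had a smaller effect at 16 h than at 8 h for 13 of 20 and a larger one for none (medians 0.96, 1.27 and 0.019), and immediate early genes likewise for 13 of 20 (medians 1.02, 0.32 and -0.43). With thapsigargin, RELB, NFKB2 and NFKB1 averaged 194, 337 and 353 CPM at 4 h and 134, 276 and 157 CPM at 8 h. Untreated, they averaged 94.3, 194 and 180.5 CPM at 4 h and 28.2, 89.2 and 54.4 CPM at 8 h, so both groups fell.

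**Figure D5:**
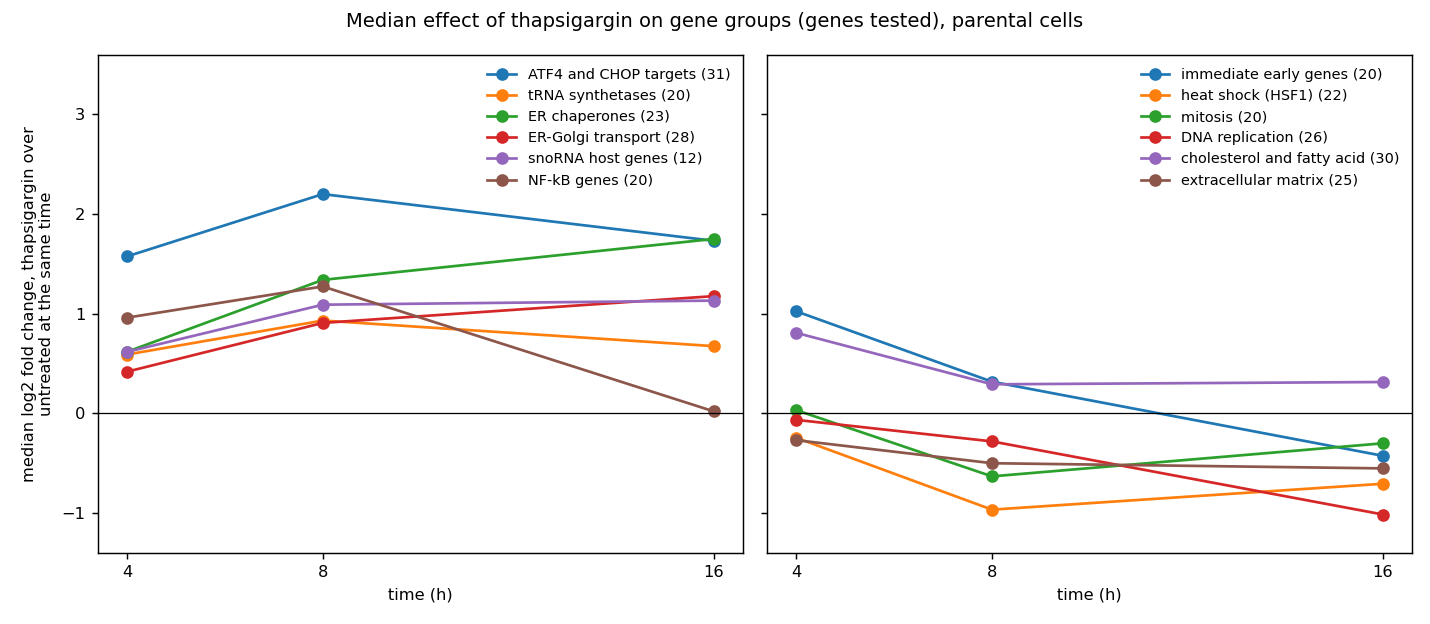
Median log2 fold change (thapsigargin over untreated at the same time) of gene groups in Parental cells at 4, 8 and 16 h. ER chaperones and ER-Golgi transport go on upward to 16 h, ATF4 and CHOP targets and tRNA synthetases stand highest at 8 h, and mitosis and heat shock genes stand lowest at 8 h. Untreated levels also moved between these times.

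Some of the genes with the largest differences between times were also among the extremes above. OLAH, BHLHA15, OSCAR and ESRP1 had effects above those at 4 h by 3.74 ± 0.57, 3.49 ± 0.33, 3.301 ± 0.49 and 3.12 ± 0.98, and OLAH, at 14.4 ± 1.995 CPM at 8 h, reached 73.8 ± 1.64 CPM at 16 h and 101 ± 1.202 CPM at 24 h. SLC2A12 had the lowest difference named between these times (-6.23 ± 0.37). In thapsigargin wells it averaged 26.6 ± 1.26, 5.92 ± 0.833 and 0.288 ± 0.163 CPM at 2, 4 and 8 h. In untreated wells it averaged 25.01 ± 2.09, 7.88 ± 0.735 and 30.1 ± 2.87 CPM at 0, 4 and 8 h, so the untreated level at 8 h was above that at 4 h. BIRC3, an inhibitor of apoptosis, was among those that fell most between 8 and 16 h (-3.41 ± 0.26). Thapsigargin wells averaged 147 ± 1.37, 55.97 ± 4.12 and 2.197 ± 0.262 CPM at 4, 8 and 16 h. Untreated wells averaged 106 ± 13.2, 16.9 ± 0.902 and 7.02 ± 0.235 CPM.

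The same treatment and time were compared between the lines. The effect differed between the lines for 3190 genes (11.8%), 1571 higher in Parental cells (5.82%) and 1619 lower (6.0%), while edgeR called 13410 genes in Parental cells (49.7%) and 13334 in Dmr-PERK cells (49.4%). The difference (Parental minus Dmr-PERK effect, log2) did not pass for DDIT3 (-0.009 ± 0.14), ASNS (-0.021 ± 0.058) and SDF2L1 (0.030 ± 0.11), which does not show that the lines respond alike. It was higher in Parental cells for TRIB3 (0.755 ± 0.10), PPP1R15A (0.67 ± 0.093), SESN2 (0.33 ± 0.10), DNAJB9 (0.28 ± 0.090), HERPUD1 (0.25 ± 0.077) and XBP1 (0.21 ± 0.065), and lower for HSPA5 (-0.55 ± 0.055), CHAC1 (-0.46 ± 0.15) and ATF4 (-0.19 ± 0.048). HSPA5 averaged 9357 ± 127 CPM with thapsigargin and 931 ± 10.4 CPM untreated in Parental cells. In Dmr-PERK cells it averaged 13410 ± 320.3 CPM with thapsigargin and 914 ± 16.6 CPM untreated. The calls for SESN2, HERPUD1, DNAJB9 and XBP1 were lost without the filter on low counts and with limma on log2(TPM + 1), where DNAJB9 came out at -0.023. They were also lost without any one of 5 wells for DNAJB9, 3 for SESN2, 2 for HERPUD1 and 1 for XBP1, and DNAJB9 lost its call in the 12 libraries fitted alone, with the replicate block (adjusted p = 0.0523) and without it (adjusted p = 0.0506). That for CHAC1 was lost without any one of 6 of the 12 wells, at -0.337 to -0.463.

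EIF2AK3 differed most upward between the lines (2.88 ± 0.070). It averaged 139 ± 6.08 CPM with thapsigargin and 26.1 ± 1.33 CPM untreated in Parental cells. In Dmr-PERK cells it averaged 712 ± 19.00 CPM with thapsigargin and 985 ± 29.9 CPM untreated, and there reads of the construct cannot be told apart from those of the gene. PTX3, GDF15, HAS2 and EPHB1 followed. HAS2 was low in Dmr-PERK cells, at 0.153 ± 0.1155 CPM with thapsigargin and 0.705 ± 0.0768 CPM untreated. For GDF15 (2.55 ± 0.24) untreated wells averaged 0.715 ± 0.2397 CPM in Parental cells and 10.7 ± 1.62 CPM in Dmr-PERK cells. MYOCD and WNT11 were among those lower in Parental cells (-3.95 ± 0.73 and -3.92 ± 0.75), and both were low in untreated Dmr-PERK cells (0.151 ± 0.0948 and 0.2504 ± 0.117 CPM). By group, NF-kB genes had a lower effect in Parental cells for 9 of 20 and a higher one for 1 (medians 1.27 in Parental and 2.08 in Dmr-PERK cells). Mitosis genes were lower in Parental cells for 9 of 20 and higher for none (medians -0.63 and -0.47), and DNA replication genes higher for 11 of 26 and lower for none (medians -0.28 and -0.47). For ATF4 and CHOP targets 10 of 31 were higher and 6 lower (medians 2.20 and 2.39), and for ER chaperones 7 of 23 higher and 2 lower (medians 1.34 and 1.17).

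As a check on the controls, Parental cells given the ligand that pairs Dmr-PERK (8 h, 3 wells) were compared with the same untreated wells. edgeR called 0 of 26998 genes (0.0%) at an adjusted p under 0.05, and 1114 had an unadjusted p under 0.05. With the ligand wells as controls in place of the untreated wells, edgeR called 13040 genes for thapsigargin. Of these 12021 were among the 13410, which is 89.6% of the 13410 and 92.2% of the 13040, and all 12021 had the same sign.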

How the data were processed

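Total RNA of U2OS wells was sequenced with a strand-marking kit (NEBNext Ultra II Directional), per the labels' protocols. Per the submitters' processing notes, the tools were Salmon 0.9.1 and FastQC 0.11.5 on GRCh38. For strand use in counting, the sources used here give no setting; without it, reads of a gene and its antisense partner cannot be told apart. The authors deposited an estimated count per gene and library. They also deposited a TPM table, with a floor of 0.063122 and sums of 1001150 to 1001825 a library. Each of the 120 columns matched 1 sample.

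Expected counts were rounded and tested with edgeR 4.0.16 (R 4.3.3): TMM factors (0.839 to 1.169), filterByExpr on the groups (minimum count 10), and 1 quasi-likelihood fit of 120 libraries in 40 groups (80 residual degrees of freedom). Adjustment was by Benjamini-Hochberg over all 26998 genes, and a gene was called under 0.05. The ± beside a log2 fold change or difference is an approximate standard error from its F statistic, and beside CPM the SD of 3 wells. Differences between effects are contrasts of the same fit. A block by replicate number, DESeq2 1.42.0, limma 3.58.1 on log2(TPM + 1), other scaling, filters, controls and left-out wells were tried.

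The libraries, gene groups, panel and tests were chosen with earlier results of these data known. Named genes are the panel, the 15 highest and 15 lowest called changes (5 CPM or more on average in the higher group, wells not overlapping), the 3 members of each group with the smallest adjusted p, and the 5 highest and 5 lowest differences; others in a group were named after their values were seen, and some genes are not reported here. Positions are those of GENCODE 29, in which 53330 identifiers matched, and promoters are from RefSeq (GRCh38.p14). A planned list of proteins with an ER retention end could not be made and was not analysed here. Intervals cover counting error only.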

Additional observations from a re-analysis of the deposited data

Results flagged for a closer look

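Each result here is a difference between 2 effects of thapsigargin that passed edgeR's adjusted p under 0.05 in a test of the difference itself. The number of such genes was 3190 between Parental and Dmr-PERK cells at 8 h, 7843 between 8 h and 4 h in Parental cells, and 6380 between 16 h and 8 h.

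The Parental minus Dmr-PERK effect (log2) was 2.88 for EIF2AK3, 2.78 for PTX3, 2.55 for GDF15, 2.52 for HAS2, 2.12 for EPHB1, 0.75 for TRIB3, 0.67 for PPP1R15A, 0.33 for SESN2, 0.28 for DNAJB9, 0.25 for HERPUD1 and 0.21 for XBP1. It was -0.19 for ATF4, -0.46 for CHAC1, -0.55 for HSPA5, -2.73 for COL26A1, -3.92 for WNT11, -3.95 for MYOCD, -4.05 for LA16c-306E5.2 and -11.02 for AC009065.1. In Dmr-PERK cells HAS2 averaged 0.153 CPM with thapsigargin and 0.705 CPM untreated. COL26A1 averaged 0.507 CPM with thapsigargin and 0.487 CPM untreated there, so both were low in that line. The call for LA16c-306E5.2 was lost with limma on log2(TPM + 1) (-1.617, adjusted p = 0.0706) and without Dmr-PERK thapsigargin well 1 (-3.746, adjusted p = 0.0668 in edgeR). AC009065.1 had 0.107, 0.109 and 0 CPM in Parental thapsigargin wells and 0.866, 12.1 and 6.38 CPM in Parental untreated wells, and averaged 4.03 ± 6.02 CPM with thapsigargin and 0.158 ± 0.0791 CPM untreated in Dmr-PERK cells (SD, n = 3).

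The effect at 8 h minus that at 4 h was 3.74 for OLAH, 3.49 for BHLHA15, 3.30 for OSCAR, 3.12 for ESRP1, 2.71 for SHANK2, 1.2 for HERPUD1, 1.08 for TRIB3, 1.06 for PPP1R15A, 0.95 for DNAJB9, 0.87 for HSPA5, 0.87 for SDF2L1, 0.69 for ASNS and 0.53 for DDIT3. It was -0.44 for ATF4, -1.07 for SESN2, -1.74 for CHAC1, -4.10 for DRD1, -4.22 for MYOCD, -4.70 for ACKR3, -4.74 for HTR2A and -6.23 for SLC2A12.

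The effect at 16 h minus that at 8 h was 2.63 for LINGO2, 2.39 for OLAH, 2.29 for HSPA1A, 2.22 for MARCO, 2.17 for LCN2 and 0.71 for HSPA5. It was -0.20 for ATF4, -0.24 for XBP1, -0.37 for HERPUD1, -0.43 for DDIT3, -0.49 for ASNS, -0.65 for SESN2, -0.74 for CHAC1, -0.79 for TRIB3, -3.39 for ALPP, -3.41 for BIRC3, -3.44 for RSPO3, -3.51 for AL513122.2 and -3.73 for KRT75. The difference for HERPUD1 was not called with limma on log2(TPM + 1) (-0.235, adjusted p = 0.142). The call for AL513122.2 was lost without any one of 3 wells (adjusted p = 0.0542 to 0.0922 in edgeR). LINGO2, chosen by this difference, did not pass at 8 h itself (log2 -0.27 ± 0.22, adjusted p = 0.338).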

How the results depend on the processing

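The count of 13410 genes stayed within 1.5 times under each alternative run, with 11701 (limma on log2(TPM + 1)) to 13705 (the 6 libraries fitted alone). Under limma on log2(TPM + 1), whose folds are smaller for low genes by its construction, 1025 genes rose and 950 fell at least 2-fold, against 1787 and 2408, the effect differed between the lines for 2118 genes, against 3190, and between 16 h and 8 h for 3932, against 6380. Leaving out 1 well in turn gave 12290 to 12843 calls, 6088 to 6349 higher and 6165 to 6524 lower, 1715 to 1768 at least 2-fold higher and 2238 to 2360 at least 2-fold lower; the differences gave 2703 to 2961 (lines), 7175 to 7589 (8 h and 4 h) and 5609 to 6115 (16 h and 8 h).

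Wells with the same replicate number showed no shared deviation in correlations over 26998 genes (0.008, 0.023 and -0.005). Counting noise in low genes could hide a weak shared deviation, so these values do not decide whether the numbers pair the wells. A fit with the replicate number as a block called 13392 genes among the 6 libraries alone and 3957 for the difference between the lines. It called 8353 for 8 h and 4 h and 6969 for 16 h and 8 h. The same libraries without the block gave 13705, 4107, 8546 and 7332.

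Signs turned for 6 values, of which the line difference of DNAJB9 alone had been called (0.28, against -0.023 on TPM; the cause was not tested). LINGO2 at 8 h was 0.027 with wells given the Dmr-PERK ligand as controls, and -0.45 to 0.066 without single wells. The line difference of DDIT3 was 0.012 with DESeq2 size factors and with DESeq2, and -0.047 to 0.021 without single wells; that of SDF2L1 was -0.019 on TPM and -0.013 to 0.064 without single wells. Without single wells, 8 h minus 4 h was -0.009 to 0.069 for XBP1, and 16 h minus 8 h was -0.109 to 0.113 for DNAJB9. HAS2 at 8 h lost its call with DESeq2 and AL513122.2 on TPM, with the ligand wells as controls and with DESeq2; both also lost it without single wells.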

Other observations

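Protein-coding genes made up 14779 of the genes tested, of which 32.1% rose and 31.4% fell. The shares were smaller for lincRNAs (10.1% higher and 14.8% lower of 2751) and for antisense genes (10.8% and 16.5% of 2412). Among transcribed unprocessed pseudogenes 28.2% rose and 15.1% fell (of 418).

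In some families more members were called in one direction than in the other. Over all genes tested, 24.4% rose and 25.3% fell, and among protein-coding genes 32.1% rose and 31.4% fell. HOX genes, the transcription factors of body patterning, fell in 25 of 35 tested and rose in 7 (median log2 fold change -0.97). Replication-dependent and other histone genes fell in 16 of 39 and rose in 3 (median -0.49), and ribosomal protein genes fell in 38 of 84 and rose in 9 (median -0.12). Zinc finger genes with a ZNF symbol rose in 214 of 547 and fell in 114 (median 0.11). Copies of DUX4, a transcription factor of the early embryo, rose in 9 of 18 tested and fell in 1, with 994, 1317 and 997 counts in all in the thapsigargin wells and 212, 234 and 416 in the untreated wells. These families were chosen after the values were seen, and reads shared between copies leave single members uncertain.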
